A study of Homo sapiens with 18 samples.

Results

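The transcripts described here encode DNA repair and Fanconi anaemia proteins, chosen by gene symbol from a fixed name pattern that covers the FANC, FAAP, BRCA, RAD, XRCC, ERCC, MSH, MLH, PMS and PARP families, damage kinases and repair polymerases. The pattern found 65 genes of the 8996 in the deposited half-life table. In GENCODE release 29, 81 protein-coding symbols fit the same pattern, and the other 16 were not analysed here. RNA decay was followed by SLAM-seq in HEK293T, a human embryonic kidney cell line. The groups were cells given STM2457, a small-molecule inhibitor of the m6A methyltransferase METTL3, and cells given DMSO, its solvent. After 3 h with either agent, s4U (4-thiouridine) was added at 100 µM for 90 or 180 min, or left out, which gives 6 groups of 3 samples, all of wild-type genotype. Alkylated s4U is read as T-to-C conversions, which tell new RNA from old. The table holds 1 fitted half-life and 1 fitted synthesis rate per gene and treatment and no value for a single sample, so no test could be made and every difference below lies between 2 fitted values with unknown error and unknown depth.

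DNA repair is divided among pathways that recognise different lesions. In the Fanconi anaemia pathway, a core ubiquitin ligase complex modifies the FANCD2-FANCI clamp at interstrand crosslinks, after which BRCA2 and its partners act in homologous recombination. Mismatch, base excision and nucleotide excision repair remove faults from 1 strand, end joining rejoins broken ends, and the kinases ATM and ATR signal damage to the cell cycle. In mRNA, m6A occurs within DRACH sequences (D is A, G or T, R is A or G, and H is A, C or T), mostly away from exon junctions, and is known to favour decay; METTL3 places most of it.

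A gene is called longer-lived or shorter-lived where its half-life differed 1.5-fold or more between STM2457 and DMSO, which is a rule of size and no test. By that rule 12 of the 65 repair genes (18.5%) were longer-lived in STM2457, against 28.5% of all genes in the table. A further 21 (32.3%) were shorter-lived, against 24.9% of all genes, and 32 stayed within 1.5-fold. At 2-fold, 10 of the 65 were longer-lived, against 19.7% of all genes, and 6 of the 65 shorter-lived, against 11.3%. The shorter-lived share was thus above that of all genes at 1.5-fold and below it at 2-fold. The median log2 ratio of STM2457 over DMSO was -0.21 for the repair genes and -0.01 for all genes, while the mean over the repair genes was -0.02. The median half-life of the repair genes was 4.00 h in STM2457 and 4.75 h in DMSO, set beside 5.39 h in STM2457 and 5.61 h in DMSO over all genes. Across the 65 genes half-lives ran between 1.19 h (BARD1) and the ceiling of the table, 69.3 h, in STM2457, and between 0.939 h (REV3L) and 23.1 h (PARP1) in DMSO. Hours are inferred from the values, since the table names no time unit.

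**Figure D1:**
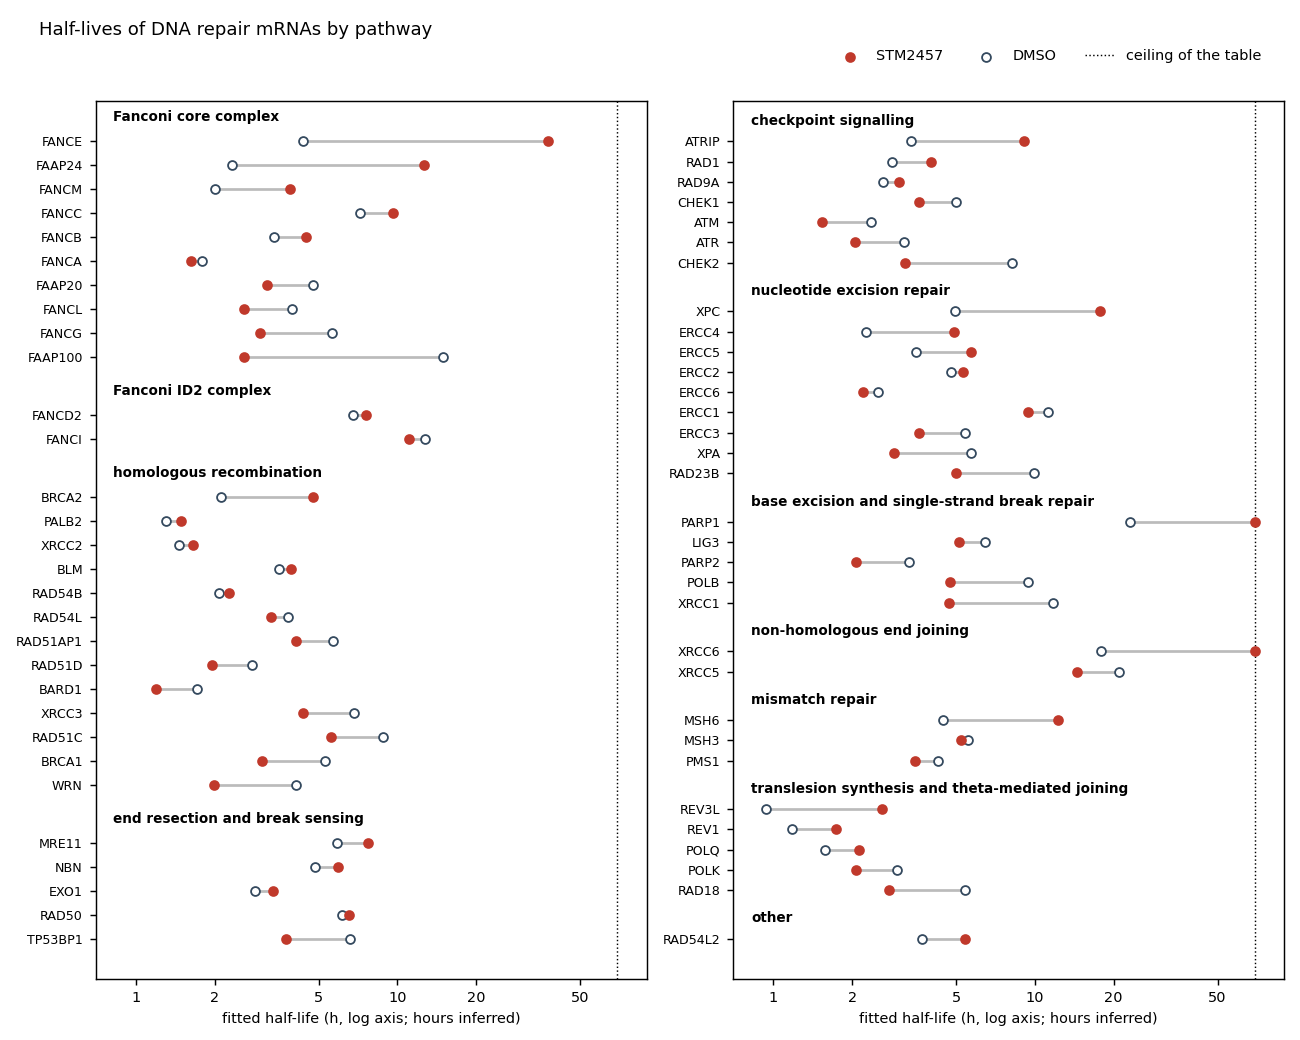
Fitted half-lives in hours (log axis) of 62 of the 65 repair genes in STM2457 (filled points) and DMSO (open points), 1 row a gene, grouped by pathway, with the ceiling of 69.3 h as a dotted line. FANCE and FAAP100 have the widest gaps, in opposite directions, and PARP1 and XRCC6 sit on the ceiling in STM2457.

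The Fanconi core complex held the largest differences in both directions. The table holds 10 of its genes: 3 were longer-lived and 4 shorter-lived, and 3 had a smaller ratio. FANCE, the subunit that bridges the core complex to FANCD2, had a half-life of 37.8 h in STM2457 and 4.34 h in DMSO, 8.69-fold longer. It lies on chromosome 6 (35452356 to 35467103, GRCh38). FAAP24, the DNA-binding partner of FANCM (chromosome 19, 32972209 to 32978222), had 12.6 h in STM2457 and 2.33 h in DMSO, 5.42-fold longer. FANCM itself, the translocase that anchors the complex to DNA, had 3.87 h in STM2457 and 2.00 h in DMSO, 1.93-fold longer. The anchoring pair was thus past the size rule in the same direction.

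FAAP100 stood at the other end of the complex. Its protein forms the catalytic module with FANCB and FANCL, and its half-life was 2.60 h in STM2457 and 14.9 h in DMSO (chromosome 17, 81539885 to 81553961). The ligase FANCL had 2.59 h in STM2457 and 3.96 h in DMSO, 1.53-fold shorter. FANCB, the third member of the module, had 4.47 h in STM2457 and 3.39 h in DMSO, within 1.5-fold. In STM2457 the 3 transcripts of the module spanned 2.59 to 4.47 h, whereas in DMSO they spanned 3.39 to 14.9 h.

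Of the subunits that gather around FANCA, those past the size rule were shorter-lived. FANCG had 2.98 h in STM2457 and 5.64 h in DMSO (1.89-fold shorter), and FAAP20, which binds FANCA, had 3.17 h in STM2457 and 4.77 h in DMSO. FAAP20 is only just past the rule, at a log2 ratio of -0.59, and falls within it once ratios are centred on the median of all genes. FANCA was the core gene nearest to no difference, with 1.62 h in STM2457 and 1.79 h in DMSO, and FANCC had a log2 ratio of 0.42. The clamp subunits that the complex ubiquitinates had log2 ratios near 0 and half-lives above the medians of all genes. FANCD2 had 7.55 h in STM2457 and 6.77 h in DMSO, and FANCI had 11.0 h in STM2457 and 12.7 h in DMSO.

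In homologous recombination, 1 of 14 genes was longer-lived, 5 were shorter-lived and 8 stayed within 1.5-fold. BRCA2, a mediator of strand exchange, was the longer-lived one, with 4.76 h in STM2457 and 2.12 h in DMSO (2.24-fold; chromosome 13, 32315474 to 32400266). BRCA1, a ubiquitin ligase, had 3.03 h in STM2457 and 5.30 h in DMSO (1.75-fold shorter). PALB2, which joins BRCA1 to BRCA2, had 1.49 h in STM2457 and 1.30 h in DMSO, and BARD1, the partner of BRCA1, had 1.19 h in STM2457 and 1.71 h in DMSO, both within 1.5-fold. BRCA1, PALB2 and BRCA2 act as 1 chain, and their log2 ratios were -0.80, 0.20 and 1.17. Each rests on 1 fitted value a treatment, and a trend along the chain was not tested.

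Other recombination genes lay on both sides of 0. RAD51C and XRCC3, which form a complex with each other, were 1.58-fold and 1.56-fold shorter-lived, with 5.59 h in STM2457 and 8.81 h in DMSO for RAD51C, and 4.37 h in STM2457 and 6.83 h in DMSO for XRCC3. XRCC2, of the same protein family, had 1.65 h in STM2457 and 1.46 h in DMSO. The RecQ helicase WRN had 1.99 h in STM2457 and 4.08 h in DMSO (2.06-fold shorter), while BLM, also a RecQ helicase, had 3.90 h in STM2457 and 3.51 h in DMSO. RAD54B had the log2 ratio nearest 0 in the pathway, at 0.13. RAD54L, RAD51AP1 and RAD51D had log2 ratios between -0.51 and -0.22. RAD54L2, a relative of the RAD54 translocases that was placed in no pathway, had 5.39 h in STM2457 and 3.69 h in DMSO, just within 1.5-fold. RAD51D, RAD54B and RAD54L2, and below RAD50 and CHEK1, overlap a protein-coding gene on the same strand, so reads may be shared and their values are uncertain.

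Genes of break sensing and resection lay mostly within 1.5-fold. The MRN complex, which detects broken ends, kept its 3 transcripts within 1.5-fold: MRE11 had 7.69 h in STM2457 and 5.87 h in DMSO, RAD50 had 6.51 h in STM2457 and 6.12 h in DMSO, and NBN had 5.94 h in STM2457 and 4.83 h in DMSO. The nuclease EXO1 had a log2 ratio of 0.23. TP53BP1, which limits resection, was the 1 gene of the 5 past the rule, with 3.75 h in STM2457 and 6.61 h in DMSO (1.76-fold shorter).

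Among 7 checkpoint genes, 1 was longer-lived, 3 were shorter-lived and 3 stayed within 1.5-fold. The kinases ATM and ATR had almost the same ratio. ATM had 1.53 h in STM2457 and 2.35 h in DMSO (1.54-fold shorter), and ATR had 2.04 h in STM2457 and 3.15 h in DMSO (1.54-fold shorter). ATRIP, which brings ATR to single-stranded DNA, had 9.06 h in STM2457 and 3.36 h in DMSO (a log2 ratio of 1.43), but it overlaps TREX1 on the same strand and is uncertain. CHEK2, the effector kinase downstream of ATM, had 3.18 h in STM2457 and 8.16 h in DMSO (2.57-fold shorter). CHEK1, the effector downstream of ATR, had 3.60 h in STM2457 and 5.00 h in DMSO, within 1.5-fold. The clamp subunits RAD9A and RAD1 had log2 ratios of 0.20 and 0.50, and RAD9A was the checkpoint gene nearest 0.

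Nucleotide excision repair, which cuts out ultraviolet and bulky lesions, had genes past the size rule in both directions, also within its damage recognition complex. Its 10 genes comprised 3 longer-lived, 4 shorter-lived and 3 with a smaller ratio. XPC, the sensor that opens the pathway, had 17.7 h in STM2457 and 4.96 h in DMSO (chromosome 3, 14145147 to 14178783). RAD23B, which stabilises the XPC protein, lay on the other side and had 4.97 h in STM2457 and 9.96 h in DMSO (2.00-fold shorter). In STM2457 the XPC transcript was thus longer-lived than that of RAD23B, and in DMSO it was shorter-lived.

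The nuclease ERCC4 had 4.90 h in STM2457 and 2.25 h in DMSO (2.18-fold longer), and the other nuclease, ERCC5, had 5.70 h in STM2457 and 3.50 h in DMSO (1.63-fold longer). ERCC5 is uncertain because it overlaps BIVM and a read-through gene of both on the same strand. ERCC1, the partner of ERCC4, had 9.38 h in STM2457 and 11.3 h in DMSO, within 1.5-fold. XPA, which verifies damage, had 2.88 h in STM2457 and 5.69 h in DMSO (1.98-fold shorter). Of the TFIIH subunits that unwind DNA, ERCC3 had 3.60 h in STM2457 and 5.42 h in DMSO, a log2 ratio of -0.59, and falls within 1.5-fold when centred on all genes; ERCC2 had a log2 ratio of 0.16 and was nearest 0 in the pathway. ERCC6, which acts on stalled RNA polymerase, had a log2 ratio of -0.19.

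Base excision and single-strand break repair had 3 of 5 genes shorter-lived. XRCC1, the scaffold of the pathway, had 4.70 h in STM2457 and 11.7 h in DMSO (2.49-fold shorter); it shares its strand with an overlapping gene model and is uncertain. POLB, the gap-filling polymerase, had 4.74 h in STM2457 and 9.44 h in DMSO (1.99-fold shorter), and PARP2, which senses strand breaks, had 2.07 h in STM2457 and 3.29 h in DMSO (1.59-fold shorter). LIG3, the ligase bound to XRCC1, was nearest 0 at a log2 ratio of -0.33. PARP1, the main poly(ADP-ribose) polymerase, was the exception, at the ceiling of 69.3 h in STM2457 and 23.1 h in DMSO.

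The Ku heterodimer, which holds broken ends for joining, was divided. XRCC6 was at the ceiling of 69.3 h in STM2457 and had 17.8 h in DMSO, whereas XRCC5 had 14.5 h in STM2457 and 21.0 h in DMSO, within 1.5-fold. PARP1 and XRCC6 were the only 2 repair genes at the ceiling in STM2457, where 10.9% of all genes sat, and no repair gene was at it in DMSO, where 2.55% did. The ceiling sets the size of both ratios (3.00-fold and 3.89-fold).

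In mismatch repair, MSH6 (chromosome 2, 47695530 to 47810101) had 12.2 h in STM2457 and 4.43 h in DMSO, 2.75-fold longer. Its alternative, MSH3, which recognises larger loops, had 5.20 h in STM2457 and 5.56 h in DMSO and was nearest 0. PMS1 had a log2 ratio of -0.29, and 3 of the 4 genes stayed within 1.5-fold. Of MSH6 and MSH3, MSH6 was thus the longer-lived transcript in STM2457 and MSH3 in DMSO.

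Genes of translesion synthesis, in which polymerases copy damaged templates, and of theta-mediated joining were together the shortest-lived group. Their median was 2.11 h in STM2457 and 1.57 h in DMSO, both the values of POLQ. REV3L, the catalytic subunit of polymerase zeta (chromosome 6, 111299028 to 111483715), had 2.60 h in STM2457 and 0.939 h in DMSO, 2.76-fold longer. REV1, its scaffold, had 1.74 h in STM2457 and 1.18 h in DMSO, just within 1.5-fold at a log2 ratio of 0.56. POLQ, which joins ends through short homologies, was the gene nearest 0, at a log2 ratio of 0.43, with 2.11 h in STM2457 and 1.57 h in DMSO. POLK had 2.07 h in STM2457 and 2.97 h in DMSO, and RAD18, the ubiquitin ligase that recruits these polymerases, had 2.76 h in STM2457 and 5.41 h in DMSO (1.96-fold shorter).

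Set side by side, the pathways with at least 4 genes had the following median half-lives. The Fanconi core had 3.52 h in STM2457 and 4.15 h in DMSO, homologous recombination 3.16 h in STM2457 and 3.66 h in DMSO, and checkpoint genes 3.18 h in STM2457 and 3.15 h in DMSO. Resection and break sensing had 5.94 h in STM2457 and 5.87 h in DMSO, nucleotide excision repair 4.94 h in STM2457 and 5.19 h in DMSO, and mismatch repair 6.30 h in STM2457 and 5.00 h in DMSO. The widest gap was in base excision repair, with 4.74 h in STM2457 and 9.44 h in DMSO: its median was the highest of these 8 pathways in DMSO and not in STM2457, where mismatch repair had the highest. The order of 2 medians need not match the direction of the ratios per gene. The median log2 ratio was 0.13 in the Fanconi core, -0.47 in checkpoint genes and -0.19 in mismatch repair, each opposite to the order of its median half-lives. In the other pathways the directions matched. Median log2 ratios per gene ran between -0.67 (base excision repair) and 0.43 (translesion synthesis and theta-mediated joining). The quartiles over all genes, -0.58 and 0.73, enclose all of these medians but the first. With 4 to 14 genes a pathway and 1 value a gene, no pathway is shown to differ from another.

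**Figure D2:**
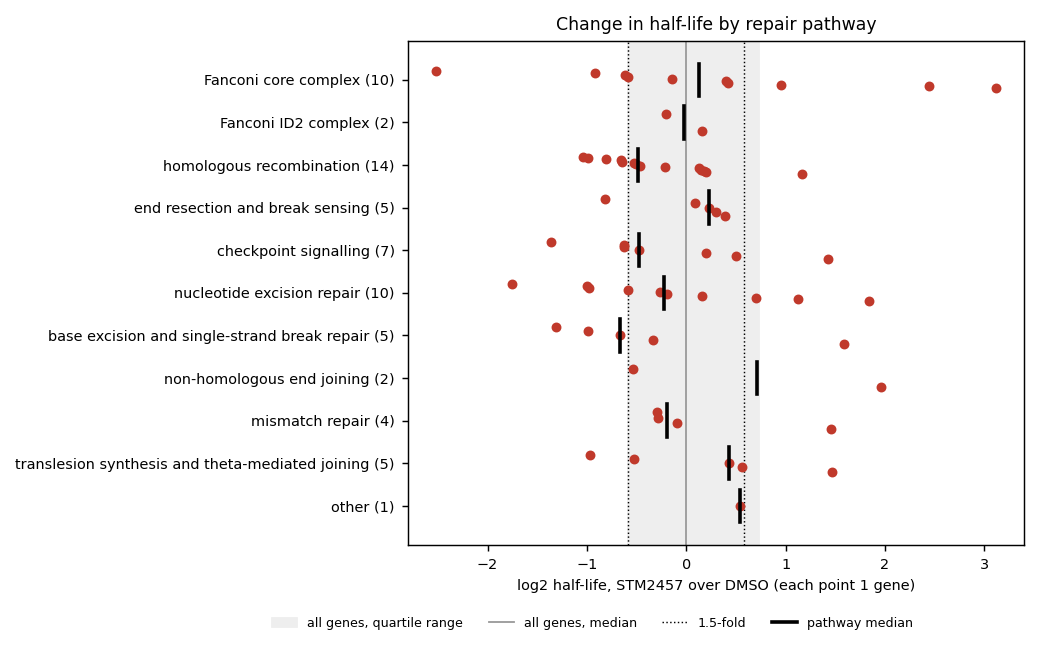
Log2 ratio of half-life, STM2457 over DMSO, for each repair gene (points) by pathway, with the number of genes in brackets, pathway medians as black bars, and the quartile range and median of all 8996 genes as a grey band and line. Every pathway with at least 4 genes has points on both sides of 0, and the Fanconi core has the widest range, -2.52 to 3.12.

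Synthesis rates of the same genes, in the unit of the table, differed less than their half-lives. At the same 1.5-fold rule 2 of 65 were higher in STM2457, against 12.6% of all genes, and 5 were lower, against 13.2% of all genes. XRCC5 was among those higher, with a rate of 386.3 in STM2457 and 255.1 in DMSO (log2 ratio 0.60). ERCC4 had the lowest ratio, with 86.0 in STM2457 and 162.0 in DMSO (-0.91). FAAP20 (-0.75), FAAP100 (-0.71), BRCA1 (-0.66) and XPC (-0.65) were also lower in STM2457. For FAAP100, FAAP20 and BRCA1 both fitted values were lower in STM2457. The steady-state abundances these fits imply, synthesis rate times half-life, were thus 0.106-fold, 0.394-fold and 0.363-fold the DMSO level. Whether falls of that size could be reached within 6 h of STM2457 was not tested, so these sizes are uncertain.

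The log2 synthesis ratio was below 0 in 9 of the 12 longer-lived genes, against 71.2% of all longer-lived genes in the table. It was below 0 in 9 of the 21 shorter-lived genes, against 33.0% of all shorter-lived genes, and in 25 of the 32 repair genes within 1.5-fold, against 56.3% of all such genes. A ratio below 0 thus did not set the longer-lived repair genes apart from those within 1.5-fold, though it was less frequent among the shorter-lived ones. In 63.1% of the repair genes the signs were opposite, against 60.9% of all genes. No source used here says how both values of a gene were fitted, and whether their errors are linked was not tested. Across genes, which are not independent replicates, the Spearman correlation of both log2 ratios was -0.34 over 65 repair genes and -0.35 over all genes with a ratio.

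**Figure D3:**
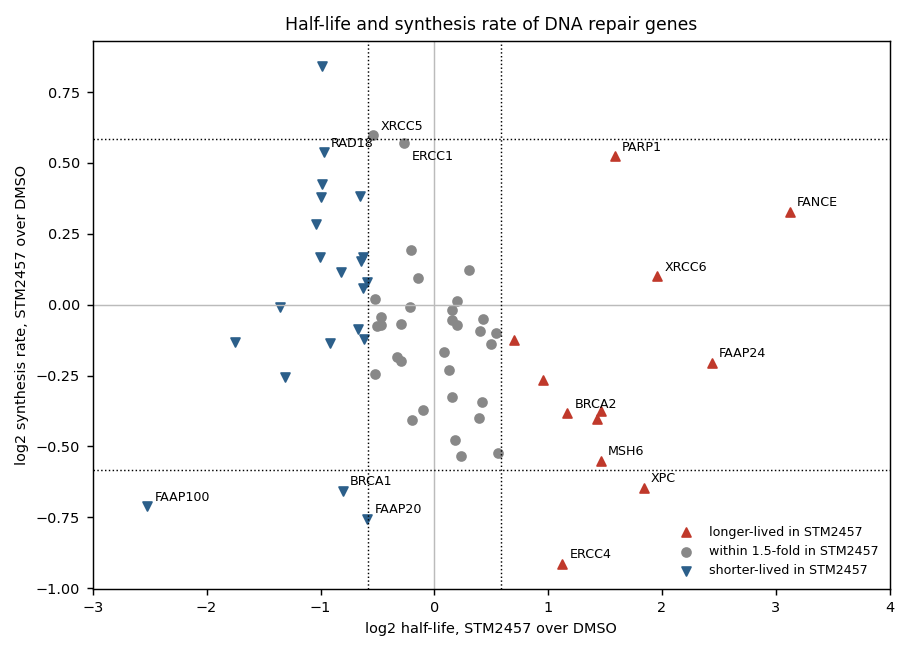
Log2 ratio of synthesis rate against log2 ratio of half-life, STM2457 over DMSO, 1 point a repair gene, with 1.5-fold as dotted lines. On the vertical axis 9 of 12 longer-lived genes and 25 of 32 genes within 1.5-fold lie below 0, and ERCC4 has the lowest synthesis ratio, -0.91.

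For some longer-lived genes, the steady-state abundance that the fits imply is more than 6 h of synthesis at the fitted rate could reach. If decay had ceased when STM2457 was added, 6 h of synthesis, to the end of the longest label, would bring FANCE to 2.20-fold its DMSO abundance, whereas its fit implies 10.9-fold at steady state. FAAP24 (4.70-fold implied, 2.55-fold reachable), PARP1 (4.31 and 1.26), XRCC6 (4.16 and 1.25), XPC (2.28 and 1.54), ATRIP (2.04 and 1.93) and MSH6 (1.88 and 1.64) were past that bound too. In all, 7 of 65 repair genes were past it, against 23.4% of all genes, and the sizes of their ratios are uncertain. The other 5 longer-lived genes, BRCA2, REV3L, FANCM, ERCC4 and ERCC5, were under it. The bound limits rises only, so the sizes of the shorter-lived ratios were not checked against the exposure.

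The series title concerns m6A in coding regions, so the repair genes were ordered by the number of DRACH motifs in their coding sequence at least 100 nt from an exon junction, in the transcript with the longest coding sequence. A motif is read from sequence alone and does not show that m6A was there. The number ran between 0 and 175 with a median of 5, against a median of 3 over 8527 genes with a coding sequence. Several repair genes carry a large part of their coding sequence in 1 very long exon: 4932 nt in exon 11 of BRCA2, 4162 nt in exon 14 of REV3L, 3426 nt in exon 10 of BRCA1, 3107 nt in exon 17 of POLQ, 2545 nt in exon 4 of MSH6 and 1906 nt in exon 14 of FANCM, counted along that transcript. BRCA2 had 175 far coding motifs, REV3L 124, POLQ 89, BRCA1 80, FANCM 59 and MSH6 50.

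To show such sequence, the GGACT, a form of the motif that METTL3 favours, that lies farthest from a junction is given below in capitals within 25 bases, for long-exon genes that were longer-lived in STM2457 (BRCA2, REV3L, MSH6, FANCM) and for those that were shorter-lived (BRCA1, TP53BP1). ERCC5, also longer-lived, is not shown because the transcript used spans a read-through gene, and PALB2 and POLQ are not shown because they stayed within 1.5-fold, although they too hold far coding GGACT. Sequences are from GENCODE release 29 transcripts (GRCh38), 5′ to 3′ on the strand of the gene.
BRCA2: aagatgaaacGGACTtgctatttac
REV3L: cacctttgaaGGACTtttggccaaa
MSH6: tcgagatttaGGACTctagtggcac
FANCM: gcctctcagtGGACTctcagacttg
BRCA1: aaaccccaagGGACTaattcatggt
TP53BP1: ctacttcagaGGACTccagtgttgt

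The A of this motif lies 2154 nt from the nearest junction in BRCA2 (chr13:32338407-32338431, plus strand), 1467 nt in REV3L (chr6:111375278-111375302, minus strand) and 1122 nt in MSH6 (chr2:47799721-47799745, plus strand). In FANCM it lies 692 nt away (chr14:45175751-45175775, plus strand), in BRCA1 1657 nt (chr17:43093080-43093104, minus strand) and in TP53BP1 443 nt (chr15:43456323-43456347, minus strand). Genes of both directions therefore carry the motif far from any junction. Far coding GGACT numbered 5 in BRCA2, 4 each in REV3L, FANCM and BRCA1, and 2 each in MSH6 and TP53BP1.

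Of the 26 repair genes with 10 or more far coding motifs, 9 were longer-lived and 4 shorter-lived (34.6% and 15.4%), with a median log2 ratio of 0.32. Among all genes of that class the shares were 45.8% and 10.5%, with a median of 0.48. Of the 15 repair genes with 0 such motifs, 1 was longer-lived, PARP1, and 7 were shorter-lived (6.67% and 46.7%), with a median of -0.54. Among all genes of that class the shares were 22.0% and 32.7%, with a median of -0.22. The classes between, with 1 to 3 motifs (14 genes) and 4 to 9 (10 genes), had medians of -0.34 and -0.44, against -0.22 and -0.02 for all genes. In both sets the class with 10 or more motifs had the highest median, and the median of the repair genes was the lower of the pair in each class.

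The half-lives behind these ratios differed more between classes in DMSO than in STM2457. Repair genes with 10 or more far coding motifs had a median of 3.61 h in STM2457 and 3.26 h in DMSO, and those with 0 had 4.74 h in STM2457 and 5.56 h in DMSO. The Spearman correlation of the motif number across the 65 genes was 0.35 with the log2 ratio, -0.19 with the half-life in STM2457 and -0.50 with that in DMSO. Long coding sequences hold more motifs, and the correlation of coding length with the ratio was 0.28 across the 65 genes. Over 8527 genes it was 0.01, whereas that of the motif number with the ratio was 0.26. Length and motif number were not separated within the repair genes. Among the 12 longer-lived genes, FAAP24, XRCC6 and PARP1 had 2 or fewer far coding motifs, and among the 21 shorter-lived genes, BRCA1, TP53BP1, ATR and FAAP100 had 80, 44, 20 and 19.

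**Figure D4:**
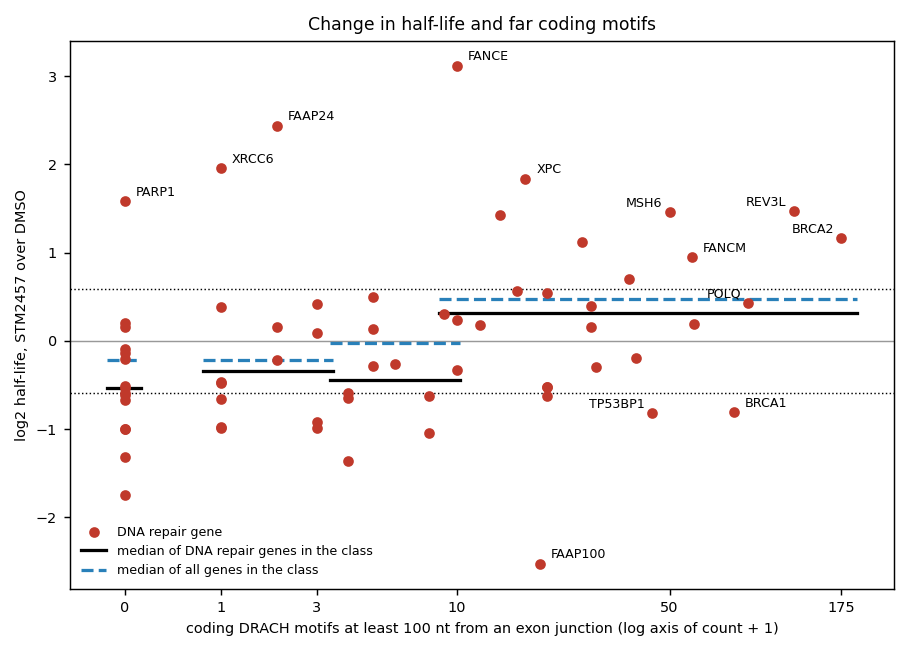
Log2 ratio of half-life, STM2457 over DMSO, against the number of coding DRACH motifs at least 100 nt from a junction (log axis of the count plus 1), 1 point a repair gene, with class medians for the repair genes (solid) and for all genes (dashed) and 1.5-fold as dotted lines. BRCA2, REV3L, FANCM and MSH6 lie above the upper dotted line, and BRCA1, TP53BP1 and FAAP100 below the lower one.

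A list of further repair genes, outside the name pattern, lay near the background. The table holds 65 of 78 listed: 20 were longer-lived (30.8%, against 28.5% of all genes) and 16 shorter-lived (24.6%, against 24.9%), and the median log2 ratio was 0.09, against -0.01 for all genes. The difference between this list and the genes of the name pattern was not tested. The highest 3 ratios among those with both half-lives between 0.5 and 24 h included RNF8, a ubiquitin ligase recruited to breaks, with 12.8 h in STM2457 and 4.40 h in DMSO. USP1, which removes ubiquitin from the FANCD2-FANCI clamp, had 10.9 h in STM2457 and 2.65 h in DMSO. RNF168, the ligase that follows RNF8, had 20.4 h in STM2457 and 1.85 h in DMSO. These 3 genes were past the bound set by 6 h of synthesis.

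The lowest 3 ratios under the same limit of 0.5 to 24 h were those of TDP1, which frees topoisomerase from DNA, with 2.64 h in STM2457 and 7.36 h in DMSO, APEX1, the main abasic site nuclease, with 6.52 h in STM2457 and 16.3 h in DMSO, and UBE2T, with 2.17 h in STM2457 and 5.71 h in DMSO. UBE2T supplies the ubiquitin that FANCL attaches to the clamp and USP1 takes off. The enzymes that attach it, FANCL and UBE2T, were shorter-lived in STM2457, and the one that removes it was longer-lived. UBE2T and USP1 are named only because they lie at the ends of the list, and FANCL is only just past the rule (log2 ratio -0.61). The core complex that holds FANCL had 3 longer-lived and 4 shorter-lived genes, so no common direction is shown for attaching the ubiquitin. DNA replication genes, a related group outside repair, numbered 58 in the table. Of these, 13 were longer-lived (22.4%, against 28.5% of all genes) and 16 shorter-lived (27.6%, against 24.9%). The median log2 ratio was -0.24, beside -0.21 for the repair genes. At 1.5-fold, a longer-lived share below that of all genes and a shorter-lived share above it were thus not particular to the name pattern. The list of further repair genes had neither. At 2-fold the shorter-lived share of the genes in the name pattern was below that of all genes.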

How the data were processed

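RNA of 18 HEK293T samples, STM2457 or DMSO with 3 labelling states and 3 samples each, was alkylated and read from 3′ mRNA libraries, per the labels' protocols. FastQC 0.11.9, STAR 2.7.8a and GRCh38.p12 are named in the submitters' processing notes. Not given in the sources used here are the kinetic fitting tool, the annotation, the use of strand and the libraries behind each fit. Per the file headers, the authors deposited a half-life and a synthesis rate (a score in an unnamed unit) per gene and treatment, and log2 ratios of STM2457 over DMSO. Ratios recomputed here differed from the authors' log2 values by at most 1.27e-14. Hours are inferred: the largest half-life, 69.3, is ln 2 over a decay rate of 0.01. Values within 1e-06 of it were taken as at the ceiling. Depth and its precision are unknown, as the table has no counts.

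Genes past 1.5-fold were counted, with all 8996 genes as background (8993 for synthesis). Members, pathways and lists were chosen with earlier results of these data known. Every member past 1.5-fold, at the ceiling or nearest 0 in its pathway is named with values, apart from some genes that are counted but not reported here, and 3 genes at each end of the list of further repair genes.

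Gene structure came from GENCODE release 29 (GRCh38); all 65 members and 8982 of 8996 identifiers matched without their version. Members that overlap a protein-coding gene on the same strand numbered 9, and 29 overlap one on the opposite strand. The motif counter was tested on simulated transcripts. Of 8 genes HEK293T cells are known to express, 5 had a half-life in the table, and of 12 markers of other cell types 2 did (COL1A1 and CDX2); a half-life is no level. Tables were made with pandas 2.3.3 and NumPy 2.4.6 in Python 3.11.15, correlations with SciPy 1.17.1 and figures with Matplotlib 3.10.9. Alternatives varied the size rule, the range of half-lives, centring, overlaps, the motif and its distance.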

Additional observations from a re-analysis of the deposited data

How the results depend on the processing

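No paired analysis was possible because the table holds no value for a single sample; for the same reason no sample could be left out. Of 63 alternative values for counts and medians, 56 stayed within 1.5 times the count or within the binomial 95% interval of the median. Many of the 63 are counts per pathway, and most of these could not change. The settings used for them, ceiling and range of half-lives, remove only PARP1 and FANCE from the pathways counted. The 56 is therefore no measure of robustness. With 2-fold in place of 1.5-fold, shorter-lived repair genes numbered 6, against 21, and 10 of 12 longer-lived ones were past it; no gene passed in synthesis (0 higher, 0 lower). Centred on the median of all genes, 4 were higher in synthesis, against 2, and shorter-lived genes numbered 19, without ERCC3 and FAAP20. Without the genes past the bound set by 6 h of synthesis, a setting chosen after seeing the data, 5 longer-lived genes were left, against 12. Base excision repair had 0 longer-lived genes both without ceiling genes and with half-lives between 0.5 and 24 h, since PARP1 is then removed. The median log2 ratio ran between -0.24 and -0.21 over its alternatives, and the mean in its place was -0.02. For 10 or more far coding motifs it ran between 0.13 (50 nt from a junction) and 0.70 (coding exons of 1000 nt or more), and with 0 between -0.56 and -0.28; at 50 nt no repair gene had 0 motifs.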

Other observations

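A grouping chosen after the values were seen used the longest coding exon in place of motifs. Of 9 repair genes with 1000 nt or more of coding sequence in 1 exon, 5 were longer-lived (BRCA2, REV3L, MSH6, FANCM and ERCC5), 2 shorter-lived (BRCA1 and TP53BP1) and 2 within 1.5-fold (PALB2 and POLQ), with a median log2 ratio of 0.70. Of the 56 with shorter exons, 7 were longer-lived and 19 shorter-lived, with a median of -0.28. Among all genes, 51.3% of 1030 with such an exon were longer-lived and 8.54% shorter-lived (median 0.61), and 25.2% and 27.1% of the 7497 others (median -0.09). BRCA1, with the third longest coding exon of the repair genes, thus stands apart from BRCA2 and REV3L by 1 fitted value in each treatment. The transcript used for ERCC5 spans a read-through gene, so its exon and motif numbers are uncertain.

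The ordering of half-lives was kept in part between treatments: the Spearman correlation across the 65 repair genes, as a description, was 0.58, and 0.65 over all genes. The repair genes at 2 h or less in both treatments numbered 5 of 65, against 581 of all 8996 genes, which is a similar share. Those 5 repair genes were BARD1, PALB2, XRCC2, FANCA and REV1, and they had log2 ratios between -0.52 and 0.56, all within 1.5-fold.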
